A study of Arabidopsis thaliana with 12 samples.

Results

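QQS (QUA-QUINE STARCH, At3g30720) is 1 gene of the 22746 probe sets compared on Arabidopsis ATH1 arrays, and it was chosen by its measured log2 values, which differed widely between the genotypes. The rule took in its own probe set and those whose values followed it most closely over the 12 arrays, here the 20 with the highest Pearson r and, for contrast, the 10 with the lowest. Young rosette leaves, 2 mm to 1 cm long, were taken in the morning from plants grown on soil for 5.5 weeks in 8 h of light at 20 °C and 16 h of dark at 18 °C. The 4 groups had 3 biological replicates each, and every replicate was a pool of leaves of 15 plants. The fdh plants carried a small insertion in the first exon of FIDDLEHEAD (allele fdh-3940 in the labels), an elongase of very long fatty acids. The lcr plants carried an insertion in the 5′ UTR of LACERATA (lcr-3P77), a cytochrome P450 that hydroxylates fatty acids. The bdg plants carried a small deletion in the first exon of BODYGUARD (bdg-2), an extracellular hydrolase fold protein. Wild type (WT) was Columbia-0, from which all lines derived, so each mutant stands for a single allele in a single accession. All of these genes act in building the cuticle, the lipid cover of the epidermis.

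QQS is an orphan gene, that is, a gene with no recognisable relative outside its own species. It encodes a very small protein and was first noticed because its transcript was raised in a mutant lacking a starch synthase. Lowering its expression raises the starch content of leaves, and its protein binds the transcription factor subunit NF-YC4, through which it shifts carbon and nitrogen between carbohydrate and protein. Its transcript level is known to vary among accessions together with DNA methylation upstream of the gene, which lies among transposons and pseudogenes. Leaf starch is built in the chloroplast by day and broken down at night, so that starch, sucrose and sugar-starvation genes form the surroundings in which QQS is usually read.

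The deposited values are log2 GCRMA values, on which a difference of 1 is a 2-fold change. In fdh leaves QQS had 9.31, 8.78 and 9.67. In lcr leaves it had 4.6, 5.13 and 6.01, in bdg leaves 3.95, 3.63 and 3.58, and in WT leaves 4.99, 5.5 and 5.08. Every fdh array lay above all 9 others and every bdg array lay below all others, while lcr and WT arrays overlapped. The means were 9.25 ± 0.45 in fdh, 5.25 ± 0.71 in lcr, 3.72 ± 0.20 in bdg, against 5.19 ± 0.27 in WT (SD, n = 3 each). The order of the means was thus fdh, lcr, WT and bdg, and the neighbours lcr and WT did not differ beyond their spread. The 12 arrays had median values of 4.56 to 4.70 over all probe sets, and QQS lay under the median of its own array on all bdg arrays and on lcr array 1. A low value of that kind was not shown to be above background, so that the bdg level may be a bound from above. In whole leaves, fewer cells expressing a gene and less RNA per cell cannot be told apart.

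**Figure D1:**
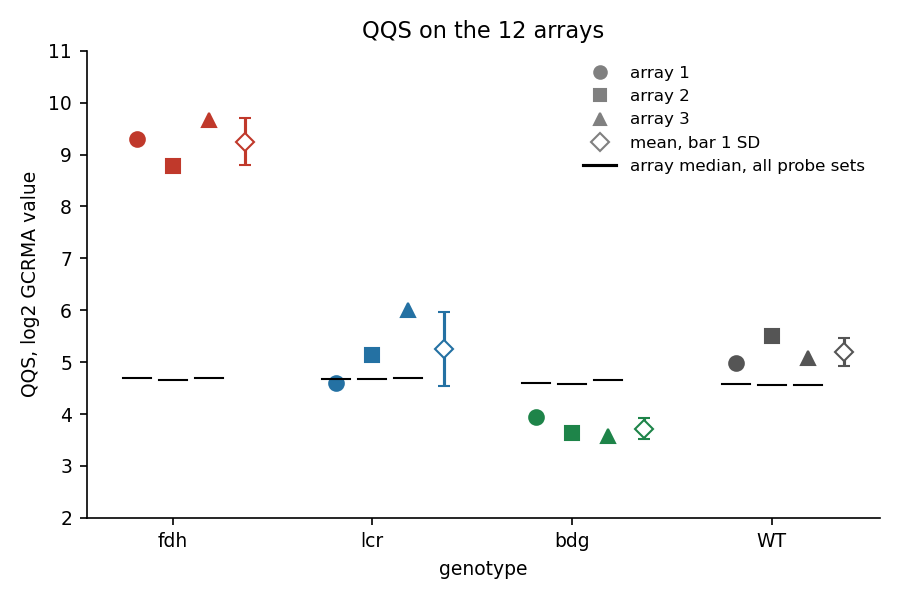
QQS on the 12 arrays, as log2 GCRMA value (vertical axis) by genotype (horizontal axis), with circles, squares and triangles for arrays 1, 2 and 3, open diamonds for the mean with a bar of 1 SD (n = 3), and black ticks for the median of all probe sets on the same array. The fdh arrays sit between 8.78 and 9.67, the bdg arrays between 3.58 and 3.95 and under their medians, and the lcr and WT arrays overlap.

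QQS was chosen for these differences, so they are given as a description without a test. QQS was 4.06 higher in fdh than in WT on the log2 scale, a 16.7-fold difference, and the lowest fdh array lay 3.28 above the highest WT array. It ranked 28 among the 22746 probe sets ordered by their fdh minus WT difference, where the lipid transfer protein gene LTP3 stood first with 7.55. In bdg minus WT the difference was -1.47, 2.77-fold lower in bdg, which placed it 22 from the bottom, with a gap of 1.04 between the groups. Between lcr and WT the difference was 0.06, and lcr was higher in 5 of the 9 pairs of arrays. The cuticle mutants therefore did not share a direction for QQS: fdh lay above WT, bdg lay below it and lcr overlapped it.

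The differences between mutants were wider still. QQS was 4.0 higher in fdh than in lcr (16.0-fold) and 5.53 higher in fdh than in bdg (46.2-fold). In the direction of higher fdh no other probe set on the array had so large a difference in either comparison. The next ones were At1g76960 with 3.38 in fdh minus lcr and LEA14, a late embryogenesis abundant protein gene, with 4.81 in fdh minus bdg. Falls in fdh were not compared with these rises in size. The lcr mean was 1.53 above the bdg mean (2.88-fold), which ranked 81, and the lowest lcr array lay 0.65 above the highest bdg array. The median difference over all probe sets lay between -0.01 and 0.01 in all 6 comparisons.

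The spread of QQS within a genotype was uneven. The SD in lcr was larger than that of 94.3% of all probe sets in lcr, and in fdh larger than that of 87.7%, whereas the bdg and WT values lay near the middle (51.5% and 56.2%). Pooled over the genotypes the SD was 0.45, against a median of 0.25 over all probe sets. The GAPDH control probe sets for the 3′ and 5′ ends differed by 3.17 on bdg array 1 and by 3.38 on WT array 2, but by 1.32 to 2.44 on the other 10 arrays. These 2 arrays were also the highest for QQS in their genotypes. Without both of them the differences from WT were 4.22 in fdh, 0.21 in lcr and -1.43 in bdg. With each array left out in turn the fdh minus WT difference ranged from 3.85 to 4.3, and lcr minus WT from -0.32, without lcr array 3, to 0.38, without lcr array 1, so that its sign turned.

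Among the other probe sets, 27 had an r of at least 0.9 with QQS and 17 an r of -0.9 or lower. The first count was 59 without fdh array 3 and 48 without lcr array 2, 8 with Spearman's rho and 1 over the 9 arrays that are not fdh. The 20 that followed it most closely had r between 0.91 and 0.96, and 17 of them could be named, 14 through the platform annotation and 3 (BG3, CRK7 and PAD3) only through the study's own lists of changed genes. Since the arrays fall into genotypes, and the fdh arrays stand far from the rest, r over all 12 arrays is set largely by what was high in fdh. All 20 had their fdh arrays above all 9 others, which held for 2.32% of all probe sets, and this follows from the choice. Over the 9 arrays that are not fdh their r with QQS ranged from 0.03 to 0.87 with a median of 0.48, and after each genotype's mean was taken off it ranged from -0.18 to 0.81 with a median of 0.37. At the edge of the list APS4 was inside with an r of 0.910, and PUB24, a U-box gene, was just outside with 0.908.

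The probe set closest to QQS was that of At4g03450 (r = 0.963). Its log2 values were 3.73, 4.18 and 4.21 in fdh, 2.27, 2.28 and 2.97 in lcr, 2.31, 2.18 and 2.22 in bdg, against 2.56, 2.75 and 2.27 in WT. All of its arrays lay under the lowest array median, and its fdh mean was 1.51 above that of WT, far less than the 4.06 of QQS. The next was At1g13470 (r = 0.956), with 7.03, 6.94 and 7.04 in fdh, 4.61, 5.76 and 5.67 in lcr, 4.49, 4.42 and 4.72 in bdg, against 5.05, 5.93 and 5.45 in WT. This gene kept the highest r of the 20 when fdh was left aside (0.87 over 9 arrays), with WT array 2 and lcr arrays 2 and 3 at its upper end as for QQS. Its bdg minus WT difference was -0.93, with lcr array 1 the only array of another genotype among the bdg values.

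BG3, a member of the beta-1,3-glucanases that cut callose and fungal wall glucans, had 8.15, 7.82 and 7.62 in fdh, 4.08, 5.53 and 6.18 in lcr, 4.11, 4.05 and 4.25 in bdg, against 4.09, 4.42 and 5.15 in WT. Its lcr arrays spread as those of QQS did, with array 1 low and array 3 high. PAD3, the P450 of the last step of camalexin synthesis, had 5.87, 6.60 and 7.38 in fdh, 3.31, 3.87 and 3.70 in lcr, 3.16, 3.37 and 3.48 in bdg, against 2.66, 3.70 and 3.54 in WT. Its bdg and WT arrays overlapped, unlike those of QQS, and its r over the 9 arrays that are not fdh was 0.33. CRK7, a cysteine-rich receptor-like kinase, averaged 4.71 ± 0.09 in fdh, 3.19 ± 0.24 in lcr, 2.83 ± 0.16 in bdg, against 2.84 ± 0.16 in WT. RING1, a RING-type ubiquitin ligase, had 8.16, 7.91 and 8.02 in fdh, 7.03, 6.98 and 6.97 in lcr, 6.95, 6.57 and 6.14 in bdg, against 7.19, 7.39 and 7.03 in WT. It was among the few followers whose bdg arrays also lay below all lcr and WT arrays, as in QQS.

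HIS1-3, a linker histone variant known to respond to drought, had 5.21, 5.27 and 6.52 in fdh, 2.84, 3.19 and 2.96 in lcr, 3.08, 2.60 and 2.51 in bdg, against 2.98, 3.04 and 3.72 in WT. As in QQS, fdh array 3 was its highest. APS4, an ATP sulfurylase that activates sulfate for assimilation, averaged 6.11 ± 0.44 in fdh, 3.92 ± 0.23 in lcr, 4.10 ± 0.17 in bdg, against 4.22 ± 0.31 in WT. FMO, a flavin monooxygenase (At1g12200), averaged 4.67 ± 0.23 in fdh, 2.95 ± 0.19 in lcr, 2.88 ± 0.38 in bdg, against 2.99 ± 0.38 in WT. In both genes the lcr, bdg and WT arrays overlapped, and r over these 9 arrays was 0.14 for APS4 and 0.28 for FMO.

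Genes known here by locus number only, and P1R1, made up the rest of the named followers. At3g17020 averaged 10.28 ± 0.19 in fdh, 9.61 ± 0.06 in lcr, 9.12 ± 0.12 in bdg, against 9.42 ± 0.15 in WT. At1g35710 averaged 8.66 ± 0.13 in fdh, 7.44 ± 0.39 in lcr, 6.95 ± 0.16 in bdg, against 7.69 ± 0.41 in WT, with an r of 0.80 over the 9 arrays that are not fdh. At1g57630 averaged 7.18 ± 0.21 in fdh, 5.51 ± 0.29 in lcr, 4.98 ± 0.15 in bdg, against 5.06 ± 0.12 in WT. In At2g27310, At3g47550, At3g51440, At1g10140 and P1R1 the fdh minus WT difference was between 0.78 and 1.22. Of all 20, 15 had their lowest mean in bdg, as QQS did (32.5% of all probe sets), and in 2, At3g17020 and RING1, the bdg arrays lay below all lcr and WT arrays (0.312%). The followers were chosen on the same values, so nothing is read from these shares. No follower covered the range of QQS: their values spanned 0.89 to 4.72 over the 12 arrays, against 6.09 for QQS, and each changed by 0.13 to 0.70 for a change of 1 in QQS. In 12 of the 20 the WT mean lay under the lowest array median, and in 4 all arrays did.

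**Figure D2:**
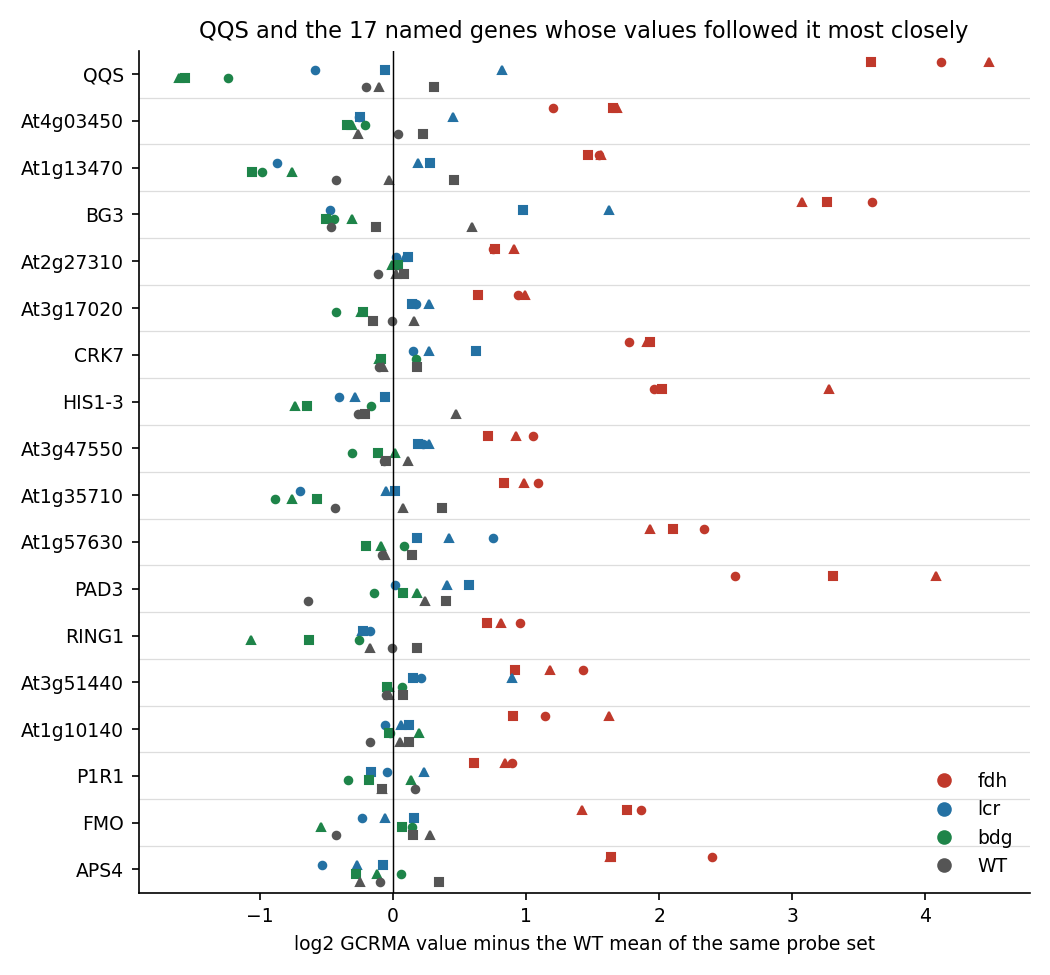
QQS and the 17 named followers in order of r (rows), each array shown as its log2 GCRMA value minus the WT mean of the same probe set (horizontal axis), coloured by genotype and with circles, squares and triangles for arrays 1, 2 and 3. In every row the fdh arrays lie to the right of all others, QQS has the widest range (6.09), and its bdg arrays lie apart on the left.

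**Figure D3:**
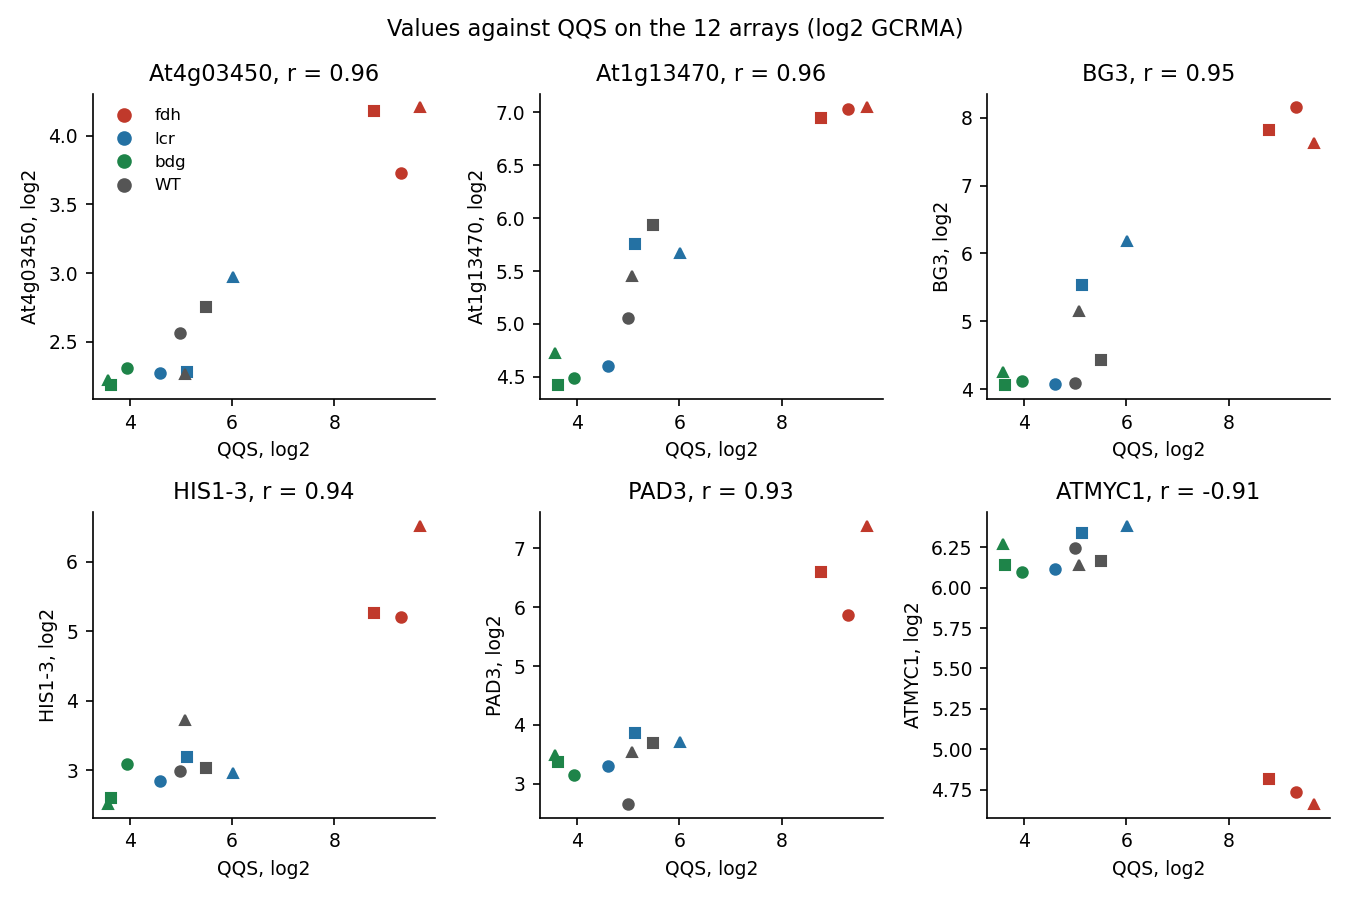
Log2 GCRMA values of 6 probe sets (vertical axes) against QQS (horizontal axes) on the 12 arrays, coloured by genotype, with circles, squares and triangles for arrays 1, 2 and 3. In all 6 panels the fdh arrays form a group of their own, and among the other 9 arrays r with QQS is 0.80 for At4g03450, 0.87 for At1g13470, 0.72 for BG3, 0.53 for HIS1-3, 0.33 for PAD3 and 0.48 for ATMYC1.

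At the opposite end 10 probe sets had r between -0.95 and -0.91, and all 10 had their fdh arrays below all others, which held for 2.54% of all probe sets and again follows from the choice. An unnamed probe set was just outside this list with -0.912, next to ATMYC1 inside it with -0.914. Only 4 could be named. ATMYC1, a basic helix-loop-helix protein of hair cell patterning, had 4.74, 4.82 and 4.66 in fdh, 6.11, 6.34 and 6.38 in lcr, 6.10, 6.14 and 6.27 in bdg, against 6.25, 6.17 and 6.14 in WT. Its fdh arrays were low and its other genotypes level, and among those 9 arrays its r with QQS was 0.48, of the other sign. ATLP-1, a thaumatin-like protein, averaged 5.25 ± 0.16 in fdh, 6.79 ± 0.30 in lcr, 6.92 ± 0.17 in bdg, against 7.05 ± 0.36 in WT. At1g23410 averaged 6.63 ± 0.45 in fdh, 7.73 ± 0.16 in lcr, 8.19 ± 0.23 in bdg, against 7.63 ± 0.10 in WT, and At1g50000 averaged 4.05 ± 0.21, 4.85 ± 0.04, 5.24 ± 0.27 and 4.91 ± 0.08 in the same genotypes. In both of these bdg was the highest genotype, and r over the 9 arrays that are not fdh was -0.78 and -0.77.

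The complete order of QQS, with fdh arrays above and bdg arrays below all lcr and WT arrays, was met by 7 other probe sets, which with QQS itself make 0.0352% of all. Of the 7, 5 had a name: At3g17020, RING1, At4g32060, At3g45620 and At5g20110. At4g32060 averaged 10.68 ± 0.09 in fdh, 10.30 ± 0.16 in lcr, 9.92 ± 0.18 in bdg, against 10.27 ± 0.18 in WT. At3g45620 averaged 7.91 ± 0.32 in fdh, 7.62 ± 0.06 in lcr, 7.13 ± 0.15 in bdg, against 7.51 ± 0.12 in WT. At5g20110 averaged 3.06 ± 0.13 in fdh, 2.73 ± 0.07 in lcr, 2.61 ± 0.03 in bdg, against 2.73 ± 0.08 in WT. The spans of the 7 ran from 0.63 to 3.40, all below the 6.09 of QQS.

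QQS lies on chromosome 3, and of the 100 genes nearest to it in the annotation of assembly TAIR10.1, 50 on each side, 82 are pseudogenes. The pair of genes on either side (pseudogenes At3g30721 and At3g30722 on one, pseudogene At3g30724 and the glutamine dumper gene GDU6 on the other) have no named probe set and were not analysed here. Of the 100 genes 19 have a named probe set, and 18 of these stayed under the lowest array median on all 12 arrays, as 43.3% of all probe sets did, with no value above 4.07. The fdh minus WT differences of those 18 lay between -0.56 and 0.01. The nearest gene measured, At3g30730, averaged 2.87 in fdh, 3.04 in lcr, 2.95 in bdg, against 2.89 in WT. The exception was ERD5 (At3g30775), a proline dehydrogenase 28 genes away, which averaged 8.42 ± 2.01 in fdh, 8.64 ± 1.71 in lcr, 6.23 ± 0.64 in bdg, against 4.97 ± 1.30 in WT. Unlike QQS it was as high in lcr as in fdh (r = 0.35 with QQS over the 12 arrays). Most of the measured genes around QQS thus gave values so low that a change in them could have gone unseen.

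**Figure D4:**
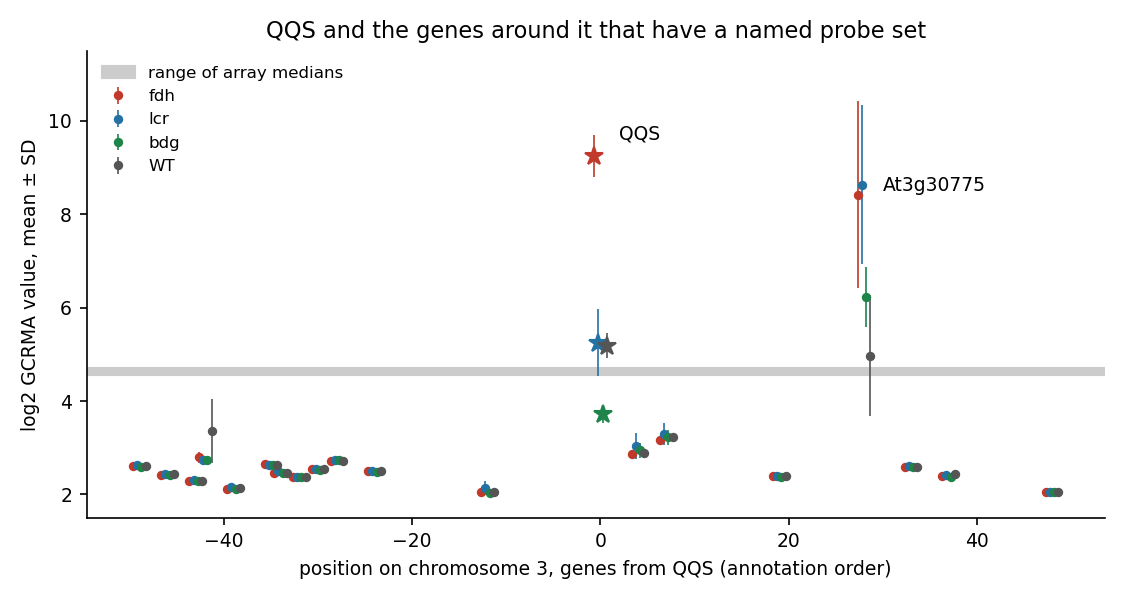
Mean log2 GCRMA value with bars of 1 SD (n = 3) in fdh, lcr, bdg and WT (vertical axis) of the 19 genes with a named probe set among the 50 genes on each side of QQS, by their place in gene order (horizontal axis). Stars mark QQS, the grey band is the range of the 12 array medians (4.56 to 4.70), and only At3g30775 (ERD5) and QQS reach above it.

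The genes of starch metabolism, in which QQS is usually placed, were read from lists of 17 synthesis and 22 breakdown genes. Only 8 of these 39 had a named probe set here, and PGM1, the starch synthase gene of the mutant in which QQS was noticed (SS3) and NF-YC4 were not among the genes with one. Against WT, Rank Product called none of the 8 in fdh at a pfp (percentage of false positives, as a fraction) under 0.05, 1 in lcr and 1 in bdg, where it called 1.88%, 1.14% and 0.554% of all probe sets. limma called none of the 8 in any of the 6 comparisons, and 1, SBE2.2 in fdh minus WT, had an unadjusted p under 0.05, as did 14.9% of all probe sets there. Of all probe sets limma called 2.17% in fdh, 0.4% in lcr and 0.11% in bdg against WT, 0.0879% in fdh minus lcr, 0.761% in fdh minus bdg and 0.0044% in lcr minus bdg. The median difference of the 8 from WT was -0.10 in fdh, -0.03 in lcr and 0.02 in bdg. In fdh the 8 ranged from -0.77 to 1.65, with a median of -0.60 for the 4 synthesis genes and 0.04 for the 4 breakdown genes.

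Among the synthesis genes APL3, a large subunit of ADP-glucose pyrophosphorylase that is induced by sugar, had the highest r with QQS (0.67 over the 12 arrays). Its values were 7.79, 7.38 and 7.97 in fdh, 5.05, 6.14 and 7.31 in lcr, 5.41, 5.92 and 6.93 in bdg, against 5.41, 5.62 and 7.85 in WT. The fdh arrays lay above those of lcr and bdg but overlapped WT through WT array 3. The difference was 1.55 ± 0.75 in fdh minus lcr (SE), which passed Rank Product (pfp = 0.0382, with 0.844% of all probe sets called) but not limma (adjusted p = 0.717), and 1.42 ± 0.75 in fdh minus WT (limma adjusted p = 0.458). SBE2.2, a starch branching enzyme, had 7.67, 7.71 and 8.28 in fdh against 8.16, 8.86 and 8.95 in WT, a difference of -0.77 ± 0.30 (SE, limma adjusted p = 0.26). APL4 averaged 3.38 ± 0.29 in fdh, 3.80 ± 0.42 in lcr, 3.47 ± 0.07 in bdg, against 4.01 ± 0.62 in WT. PTST1, which brings granule-bound starch synthase to the granule, averaged 4.96 ± 1.23 in fdh, 5.57 ± 1.30 in lcr, 5.6 ± 0.78 in bdg, against 5.54 ± 1.42 in WT.

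Among the breakdown genes only BAM5 was called. This beta-amylase, the main one of leaf extracts though it lies outside the plastid, was named only through the study's lists of changed genes, so its call is not independent of them. It had 6.33, 5.36 and 8.78 in fdh, 5.75, 5.34 and 9.05 in lcr, 6.08, 6.18 and 7.97 in bdg, against 3.0, 3.44 and 9.07 in WT. Array 3 was the highest in every genotype and WT array 3 was the highest of all, so that the groups overlapped. The differences from WT were 1.54 in lcr (pfp = 0.0435) and 1.57 in bdg (pfp = 0.0286), with an SE of 1.72 and limma adjusted p of 1.00 in both. Without WT array 3 the calls stood (pfp = 0.00243 in lcr and 0.000588 in bdg), and without any one of the other 5 arrays of each comparison they ended, with pfp up to 0.40 in lcr and 0.298 in bdg. Array 3 was the highest of every genotype in APL3, PTST1 and BAM5, 3 of the 8 starch genes, and in 8.08% of all probe sets. PWD, the phosphoglucan water dikinase, DPE1, a disproportionating enzyme, and AMY1, an alpha-amylase, differed from WT by -0.23 to 0.35 in all mutants.

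Of 20 genes of sucrose metabolism and sugar transport 6 had a named probe set, and of 10 genes known to rise in sugar-starved leaves 5 had one. All 5 of the second list, and SUS1 and cwINV1 of the first, were named only through the study's lists of changed genes, so their counts are not independent evidence of a direction. In fdh minus WT Rank Product called all 5 starvation genes higher, and SUS1 and cwINV1 higher and SPS4F lower of the 6 sucrose genes (1.69% of all probe sets were called higher and 0.189% lower). In lcr it called 3 starvation genes and SUS1 higher and SPS4F lower (1.03% of all probe sets higher and 0.114% lower), and in bdg TPS10 alone (0.519% higher). limma called ASN1, TPS10, TPS11 and cwINV1 in fdh (2.17% of all probe sets), TPS10 in lcr (0.4%) and none in bdg (0.11%). In bdg 2 starvation and 2 sucrose genes had an unadjusted p under 0.05, as did 4.22% of all probe sets.

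ASN1, an asparagine synthetase that is induced in the dark and repressed by sugar, was the list gene closest to QQS (r = 0.852). It was named only through the study's lists of changed genes, so its calls are not independent of them. It had 9.63, 9.65 and 9.84 in fdh, 8.97, 8.74 and 8.11 in lcr, 7.10, 6.56 and 6.91 in bdg, against 7.64, 7.85 and 6.79 in WT. The fdh arrays were the highest and the lcr arrays lay above all those of bdg and WT, which QQS did not show, while bdg and WT overlapped. ASN1 was 2.28 ± 0.30 higher in fdh than in WT (SE, limma adjusted p = 0.00896). Against bdg it was 2.85 ± 0.30 higher (adjusted p = 0.00961 in limma). In limma the call against bdg held under all alternatives run, and the call against WT under all but the fit with only the 2 groups (adjusted p = 0.082).

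With the replicate number as a block limma called all 5 starvation genes in fdh minus WT, adding SEN1 (adjusted p = 0.047) and DIN10 (adjusted p = 0.0386) to the 3 called without it, where it called 3.72% of all probe sets against 2.17% without the block. All 5 were named only through the study's lists of changed genes. Their count is therefore not independent of those lists, and the shares of all probe sets are no like measure for it. The other starvation genes did not divide the genotypes as QQS did. SEN1 had 6.60, 6.89 and 6.48 in fdh, 7.13, 6.13 and 5.27 in lcr, 5.00, 4.58 and 3.45 in bdg, against 4.73, 5.48 and 2.87 in WT. It was 2.29 ± 0.71 higher in fdh than in WT (SE, pfp = 0.0303, limma adjusted p = 0.154) and 2.31 higher than in bdg (pfp = 0.0114, with 1.65% of all probe sets called, limma adjusted p = 0.184). DIN10, a raffinose synthase family gene, was 2.56 ± 1.24 higher in fdh (pfp = 0.0201, limma adjusted p = 0.395) and 2.75 higher in lcr than in WT, with fdh and WT arrays overlapping. TPS10 and TPS11, of the trehalose-phosphate synthase family, were higher than in WT by 2.03 ± 0.31 (SE, limma adjusted p = 0.0171) and 2.27 ± 0.43 (limma adjusted p = 0.0343) in fdh. Both were at least as high in lcr, with TPS10 at 2.41 and TPS11 at 2.40 above WT, and in bdg TPS10 stood 1.74 above WT (pfp = 0.0303). In these last 2 genes it was WT that stood low, at 3.73 ± 0.67 for TPS10 and 5.17 ± 1.01 for TPS11, whereas for QQS it was fdh that stood high and bdg that stood low.

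Among the sucrose genes cwINV1, a cell wall invertase, was 2.08 ± 0.42 higher in fdh than in WT (SE, limma adjusted p = 0.0407, pfp = 0.0394), with 10.01, 9.65 and 9.16 in fdh against 8.04, 7.91 and 6.64 in WT. It was also 1.45 higher in lcr and 1.52 higher in bdg than in WT. There too the arrays did not overlap, though neither test called it. Its fdh mean lay 0.62 above lcr and 0.56 above bdg, without a call, so the rise was not particular to fdh. SUS1, a sucrose synthase, was 1.93 ± 0.67 higher in fdh (pfp = 0.0443) and 2.05 higher in lcr (pfp = 0.0207) than in WT, and SPS4F, a sucrose-phosphate synthase, was lower, with differences of -1.77 ± 0.58 in fdh (pfp = 0.0387) and -1.74 in lcr (pfp = 0.0333). limma called neither gene in fdh (adjusted p = 0.207 for SUS1 and 0.177 for SPS4F).

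Most of these calls changed with the settings. Of the 8 Rank Product calls of sucrose and starvation genes in fdh, the filter on low values kept DIN10 (pfp = 0.0471) and ended the others (0.0647 to 0.105). It also ended SUS1 and SPS4F in lcr (0.0579 and 0.0581) and TPS10 in bdg (0.0723). Without WT array 2 and bdg array 1 the calls for SPS4F, SUS1 and TPS10 in fdh ended (0.0573 to 0.297), as did SPS4F and SUS1 in lcr (0.393 and 0.145) and TPS10 in bdg (0.214). With 1 array left out, the Rank Product calls in fdh ended without any of the 6 arrays for SPS4F (pfp 0.0661 to 0.297), and without any array but WT 3 for SUS1 (up to 0.231) and TPS10 (up to 0.209). They ended without each fdh array and WT array 3 for cwINV1 (up to 0.196), ASN1 (up to 0.141) and SEN1 (up to 0.166), without each fdh array and WT array 1 for TPS11 (up to 0.157), and without fdh array 1, fdh array 2 or WT array 3 for DIN10 (up to 0.324). In lcr they ended without each lcr array and WT array 2 for SUS1 (up to 0.148), and without lcr array 3, WT array 1 or WT array 2 for SPS4F (up to 0.419). Also in lcr they ended without lcr array 1, lcr array 2 or WT array 3 for DIN10 (up to 0.234), without each lcr array for TPS10 (up to 0.0976), and without each lcr array and WT array 1 for TPS11 (up to 0.0984). For TPS10 in bdg the call ended without each bdg array and WT array 1 (up to 0.222). In limma the call for TPS10 ended without fdh array 1 in fdh (adjusted p = 0.0672), and without each lcr array in lcr (up to 0.085). That for TPS11 in fdh ended without each fdh or lcr array, bdg array 1, bdg array 3 or WT array 2 (adjusted p up to 0.117). That for cwINV1 ended without fdh array 1, fdh array 2, lcr array 3 or any bdg or WT array (adjusted p up to 0.172). With only the 2 groups in the fit all 4 of limma's calls in fdh ended, ASN1 at an adjusted p of 0.082 and TPS10, TPS11 and cwINV1 at 0.155 to 0.208, as did TPS10 in lcr (0.243). Without WT array 2 and bdg array 1 limma's calls for TPS10, TPS11 and cwINV1 in fdh and TPS10 in lcr ended (0.0627 to 0.0945), and cwINV1 also ended after a second quantile normalization (0.0507).

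**Figure D5:**
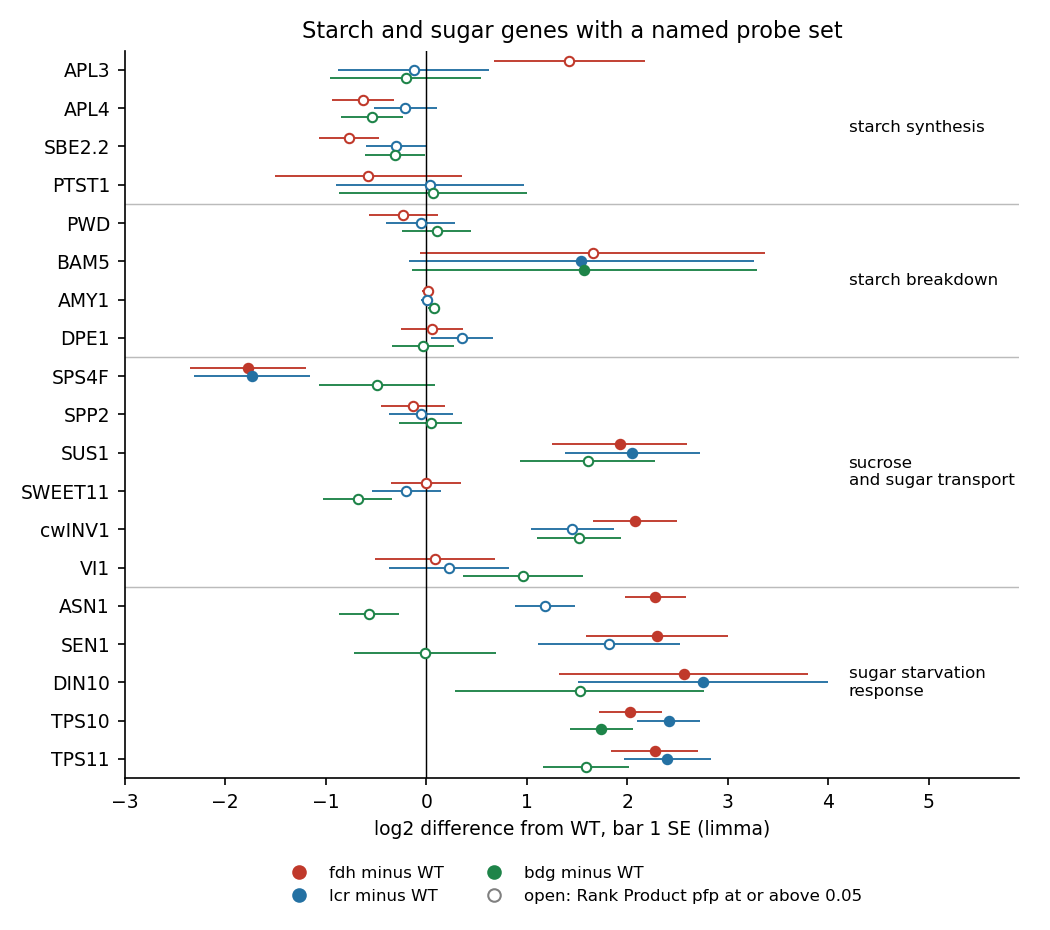
Log2 difference from WT (horizontal axis, bars of 1 SE from limma) of the starch, sucrose and sugar-starvation genes with a named probe set (rows), in fdh, lcr and bdg (colours), with filled points where the Rank Product pfp was under 0.05. The 8 starch genes lie between -0.77 and 1.65 in fdh, -0.30 and 1.54 in lcr, and -0.54 and 1.57 in bdg. The 5 starvation genes, named only through the study's lists of changed genes, lie 2.03 to 2.56 above WT in fdh.

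The remaining lists gave little to compare. Of 10 genes of the NF-YC and SnRK1 group, the partners of QQS and the kinase that senses carbon starvation, AKINBETA1 and AKINBETA2 had a probe set, and neither was called (differences from WT of -0.08 to 1.02). The unadjusted p was under 0.05 in fdh minus WT for 1 of them, AKINBETA1, as for 14.9% of all probe sets. It had 7.32, 7.25 and 6.24 in fdh against 6.24, 6.28 and 5.21 in WT, so that the arrays overlapped. Of 19 genes of DNA methylation and silencing only DME, a DNA glycosylase that removes methylcytosine, had named probe sets, 3 of them, with no call in any mutant and differences from WT of -0.23 to 0.40. Of the circadian genes GI differed from WT by -0.19 in fdh, 0.47 in lcr and 0.39 in bdg, without a call. The leaf marker RCA, Rubisco activase, had genotype means of 14.1 to 14.3, and FAMA, a guard cell factor, 5.57 to 5.87. Epidermal, floral and vascular markers had no named probe set, nor did BDG, FDH and LCR themselves, so neither the labels nor other tissue in the samples could be checked through them.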

How the data were processed

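RNA of 12 leaf samples was hybridised to Affymetrix ATH1 arrays, 1 array a sample. The deposited log2 values were computed by the authors with GCRMA, whose version is not given in the sources used here, and no replicates were pooled. The 64 array controls were left out, and no filter on low values was used. An array has no depth in reads, and precision is limited by how many arrays there are. Every column belonged to a sample. The study's own fold changes and pfp values, in its lists, were not used as results. Identical values beside the entries of those lists served only to match loci to probe sets. The platform annotation named 13513 probe sets with 1 gene each (503 with several were not named), and 235 more were named through the study's lists, which hold changed genes only and were read from a shortened copy. Gene positions follow assembly TAIR10.1.

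QQS and its followers (Pearson r, all 12 arrays) are described without a test. Each mutant was compared with WT by Rank Product, written anew, on the 9 mutant to WT ratios, at 100 permutations and a pfp under 0.05. Rank Product was also run between the mutants in the same way, but there under no alternative setting. Differences, SE and adjusted p came from limma 3.58.1 in R 4.3.3, with all 12 arrays in one model, no replicate block and Benjamini-Hochberg adjustment over 22746 probe sets, and limma also compared the mutants. Both tests were run on simulated data only as a check of the code, and no error rate for these data is drawn from that. The labels do not tie replicate numbers to the 3 harvest rounds, but deviations of same-numbered arrays correlated above 0.1 for all 3 numbers in 4 of the 6 comparisons (fdh against each other genotype and lcr against bdg, 0.11 to 0.65). The alternative with the block was not limited to these 4. In limma it was fitted in one model over all 12 arrays, and in Rank Product it was run for each mutant against WT. The p-values are two-sided. Named genes were QQS, its 20 closest and 10 most opposite probe sets, starch genes past a threshold in any comparison, genes of the other lists past one in fdh, and the genes beside QQS. Others were named after their values were seen. The members and lists were chosen with earlier results of these data known. Alternatives were another test, a second quantile normalization, a filter keeping probe sets above log2 5 on at least 3 arrays, the replicate block, medians, rank correlation and leaving out arrays.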

Additional observations from a re-analysis of the deposited data

Results flagged for a closer look

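QQS moved in opposite directions in 2 of the mutants. Every fdh array lay above every WT array, with a difference of 4.06, and every bdg array lay below every WT array, with a difference of -1.47. Both are on the log2 scale. The difference between the mutants was not tested, because the gene was chosen for it. The GAPDH probe sets for the 3′ and 5′ ends differed most on WT array 2 and bdg array 1, and without these arrays the differences were 4.22 and -1.43.

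ASN1 differed between the same mutants, with fdh 2.85 above bdg (SE 0.30, limma adjusted p = 0.00961) and all 3 fdh arrays above all 3 bdg arrays. Its difference from WT was 2.28 in fdh and -0.57 in bdg, where the arrays overlapped. ASN1 was named only through the study's lists of changed genes, so its call is not independent of them.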

How the results depend on the processing

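The differences of QQS moved by less than the SD within genotypes under a second quantile normalization, with medians and without WT array 2 and bdg array 1, where lcr minus WT, 0.06 as reported, was -0.03, 0.05 and 0.21. With 1 array left out at a time they ranged over 3.85 to 4.3 (fdh minus WT), -0.32 to 0.38 (lcr minus WT), -1.58 to -1.31 (bdg minus WT), 3.68 to 4.39 (fdh minus lcr), 5.32 to 5.77 (fdh minus bdg) and 1.14 to 1.85 (lcr minus bdg). Of the 20 probe sets closest to QQS, 19 stayed among the first 20 when only probe sets spanning at least 1 log2 unit were ranked and 18 after a second quantile normalization, but 6 with Spearman's rho, 3 over the 9 arrays that are not fdh and 0 with deviations from the genotype means. With 1 array left out 6 to 19 stayed, 6 without fdh array 3 and 12 without fdh array 2. The cause was not tested. The count of starch genes called was 1 in lcr minus WT with Rank Product and 0 with limma, the filter, the replicate block, and without WT array 2 and bdg array 1. In bdg minus WT it was 1, and 0 with limma, the replicate block and without those arrays. In fdh minus lcr limma called 0 and Rank Product 1. With 1 array left out the counts ranged from 0 to 1 in each mutant against WT (Rank Product) and stayed at 0 between mutants (limma). The Rank Product call of APL3 in fdh minus lcr was not rerun with arrays left out or with the block. The 1 in fdh minus WT came without WT array 3. Leaving out an array leaves 6 ratios in place of 9. In lcr and bdg against WT the arrays numbered 3 deviated together (correlations of 0.67 and 0.73). Those numbered 1 and 2 did not (-0.36 to 0.03), so there the number paired the samples only in part. With the replicate block the count of starch genes called was 0 in all 6 comparisons, by Rank Product against WT and by limma between mutants. The calls for BAM5 thus ended (pfp = 0.176 in lcr and 0.0869 in bdg). In fdh minus WT the block changed no Rank Product call of the genes named. Values under the array median set the limit for bdg and for most neighbours of QQS.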
